A study of Rattus norvegicus with 18 samples.

Results

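The uninjured rat bladder was compared between its mucosa and its detrusor in 6 of the 18 libraries of the study. The members were the libraries whose labels read control and mucosa (3 libraries) or control and detrusor (3 libraries). All came from wild-type male Sprague Dawley rats that had neither spinal cord injury nor treatment, and the study describes them as matched in age to the injured rats, which were operated on at 6 to 7 weeks of age. The remaining 12 libraries came from rats with a complete thoracic spinal cord transection that then received vehicle (SCI-vehicle) or inosine at 225 mg/kg per day (SCI-inosine) for 8 weeks, 3 of each tissue and treatment. They entered the estimate of the spread and served to look for the same tissue difference in other rats. Bladders were microdissected into the layers before total RNA was depleted of ribosomal RNA and sequenced, so a library holds every cell type of its layer. The sources do not say whether a mucosa and a detrusor library with the same replicate number came from the same rat, or whether the libraries of a group all came from separate rats.

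The mucosa is made up of the urothelium, a stratified epithelium that seals the wall against urine and senses stretch, and the lamina propria beneath it, a connective tissue with fibroblasts, blood vessels, nerve fibers and immune cells. The detrusor is the smooth muscle layer that stores urine at low pressure and contracts during voiding. Smooth muscle cells are known for large amounts of a few transcripts that encode the contractile apparatus, whereas the mucosa mixes epithelial, stromal, vascular and immune cells. In bulk RNA, a lower level of a gene can reflect fewer cells of a type or less RNA per cell, and these cannot be told apart.

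The data were read counts on 32754 Ensembl rat genes. Neither the deposited table nor the reference table used here pairs these identifiers with gene symbols (0 of 32754 matched). Tissue markers such as uroplakins, keratins or smooth muscle myosin could therefore not be looked up, the tissue labels could not be checked against them, and genes are described as groups, with 4 given by identifier. Total counts were 4101639 to 6163986 in the detrusor libraries and 4475878 to 5632324 in the mucosa libraries.

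More genes were detected in the mucosa libraries, and the counts of the detrusor libraries were concentrated on fewer genes. These measures are not independent, because counts held by a few genes leave fewer with which to detect the others. Between 18279 and 18656 genes had at least 1 count in the mucosa libraries, against 16475 to 17282 in the detrusor libraries. To reach 50% of all counts took 264, 308 and 326 genes in detrusor replicates 1, 2 and 3, and 953, 944 and 1015 genes in mucosa replicates 1, 2 and 3. The groups did not overlap in either measure. The 10 most abundant genes of a library took 15.5% to 17.3% of its counts in detrusor and 8.77% to 9.24% in mucosa. The single most abundant gene took 4.30% to 5.24% in detrusor and 1.80% to 2.00% in mucosa. An exact permutation test of 3 libraries against 3 cannot give a two-sided p below 0.1, so these differences were read against the range of the replicates alone.

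**Figure D1:**
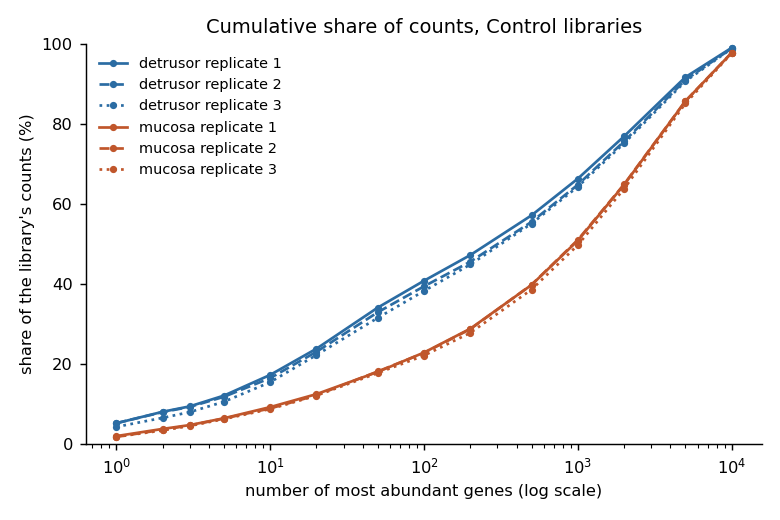
Share of a library's counts (%, vertical axis) held by its most abundant genes (number of genes, log scale, horizontal axis) in the 3 detrusor (blue) and 3 mucosa (orange) Control libraries, 1 line per library. The 100 most abundant genes held 38.3% to 40.8% of the counts in detrusor and 22.1% to 22.9% in mucosa, and the lines of the tissues did not cross.

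To ask which genes set the layers of the uninjured bladder apart, counts were scaled by the TMM method, expressed in CPM, the field's unit for counts relative to library size, and compared with the quasi-likelihood test of edgeR. All 18 libraries shared 1 estimate of the spread. A gene was tested if it exceeded 1 CPM in 3 or more libraries of the study, which left 15740 genes. For this filter CPM was taken on library totals, so in TMM-scaled CPM the cutoff was lower in mucosa than in detrusor. A tested gene was called different at a p-value under 0.05 after Benjamini-Hochberg adjustment over all genes tested. Of the 15740 genes, 7003 (44.5%) were called, 3666 (23.3%) higher in mucosa and 3337 (21.2%) higher in detrusor. The libraries of the 2 tissues were fully separated for 3581 (97.7%) of the mucosa-higher calls and 3232 (96.9%) of the detrusor-higher calls. By comparison, all genes tested, the called ones among them, included 8948 (56.8%) without overlap. Calls and separation rest on the levels in the same 6 libraries, so the separation is a description and adds no support to the calls.

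The balance between the directions depended on how libraries were scaled and which genes were tested. The TMM factors were 0.769 to 0.834 in the detrusor libraries and 1.14 to 1.22 in the mucosa libraries, and the median log2 fold change (mucosa minus detrusor) of all genes tested was 0.07. Scaling by library totals raised this median to 0.63 and gave 7426 genes higher in mucosa and 1544 higher in detrusor, so that the share higher in mucosa went from 52.3% to 82.8%. The majority turned to detrusor with edgeR's filterByExpr filter (3278 higher in mucosa and 3612 higher in detrusor, 47.6%), with every gene that had a count (3144 and 3391, 48.1%) and without detrusor SCI-inosine replicate 2 (48.4%). Directions are therefore given relative to the bulk of genes, and small differences in particular rest on that choice.

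Among called genes, the median fold was larger on the mucosa side and the median abundance was higher on the detrusor side. Genes called higher in mucosa had a median log2 fold change of 1.68, from 7.26 CPM (median) in detrusor to 26.1 CPM in mucosa. Genes called higher in detrusor had a median of -1.03, with 57.7 CPM in detrusor and 27.2 CPM in mucosa. The median standard error (log2) was 0.34 for the mucosa calls and 0.2 for the detrusor calls, and a less precise gene needs a larger fold to be called. A difference beyond 4-fold was called for 2294 genes (14.6% of those tested), 1526 (9.70%) higher in mucosa and 768 (4.88%) higher in detrusor. With library totals these were 2327 and 535, and the mucosa share of them went from 66.5% to 81.3%. Beyond 16-fold there were 556 and 186 genes, and beyond 64-fold 134 and 22. In part these large folds came from genes at or near 0 in the other tissue. Of the 1526 genes, 174 had 0 counts in all 3 detrusor libraries and another 291 had 1 to 3 counts there in total, whereas of the 768 genes 17 had 0 counts and 65 had 1 to 3 counts in mucosa. With 3 counts per group taken as the least value, 1447 and 775 called genes lay beyond 4-fold and 72 and 6 beyond 64-fold, and the median log2 fold change of the 4-fold groups was 2.83 and -3.14, against 3.21 and -3.12 as fitted. The difference in median size between the 4-fold groups thus turned with the treatment of low counts.

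**Figure D2:**
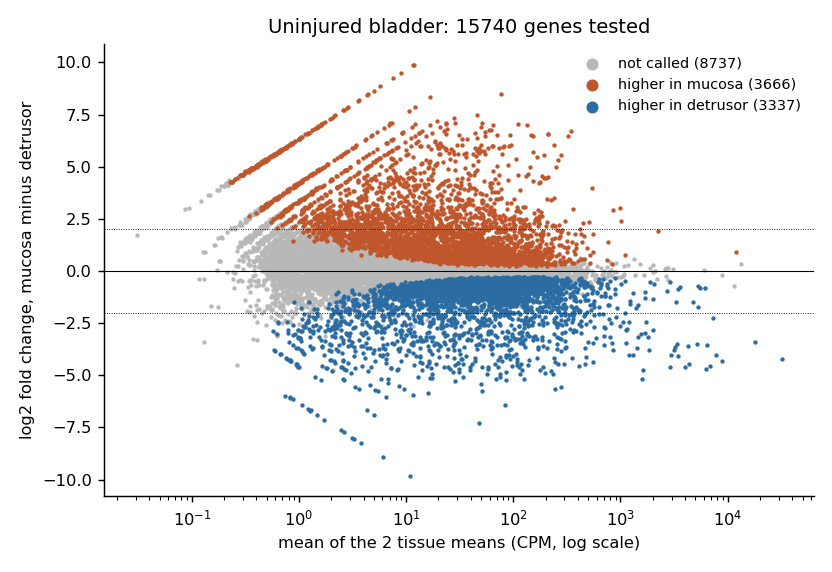
Log2 fold change (mucosa minus detrusor, vertical axis) against the mean of the tissue means (CPM, log scale, horizontal axis) for the 15740 genes tested, with 3666 genes called higher in mucosa (orange), 3337 called higher in detrusor (blue) and the rest in grey. Dotted lines mark 4-fold. The straight streaks at low abundance are genes with few or 0 counts in one tissue, and the blue points reach further to the right than the orange points.

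Direction changed with abundance. Among the 5904 genes under 10 CPM (mean of the tissue means), 1351 were called higher in mucosa and 497 higher in detrusor. Among the 7863 genes from 10 to 100 CPM, 1930 and 2030 were called, and among the 1886 genes from 100 to 1000 CPM, 381 and 752. At 1000 CPM or more, 58 of 87 genes were called higher in detrusor and 4 higher in mucosa. The share of calls that were higher in mucosa was 73.1%, 48.7%, 33.6% and 6.45% in these classes. Up to 300 CPM this went with more detrusor calls rather than fewer mucosa calls, since in the 6 finer classes below that level mucosa calls stayed between 17.3% and 27.4% of genes while detrusor calls rose from 2.47% to 38.2%. Mucosa calls were fewer above it, at 12.5% of 329 genes from 300 to 1000 CPM and 4.60% of the 87 genes beyond. With library totals the share of calls higher in mucosa was 88.0% in the lowest class and 26.6% in the highest, with DESeq2 size factors 73.5% and 7.94%, and with upper quartile scaling 75.8% and 8.33%. From 10 to 100 CPM the majority turned from detrusor to mucosa with upper quartile scaling (2103 and 1797 genes) and with library totals (4252 and 794), and from 100 to 1000 CPM with library totals (916 and 397). The classes were not run with filterByExpr or with every gene that had a count, where the majority of all calls turned to detrusor. The part of the filter in the mucosa majority under 10 CPM was therefore not tested. Precision rose with abundance as well, from a median standard error of 1.01 (log2) under 1 CPM to 0.15 between 100 and 300 CPM.

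**Figure D3:**
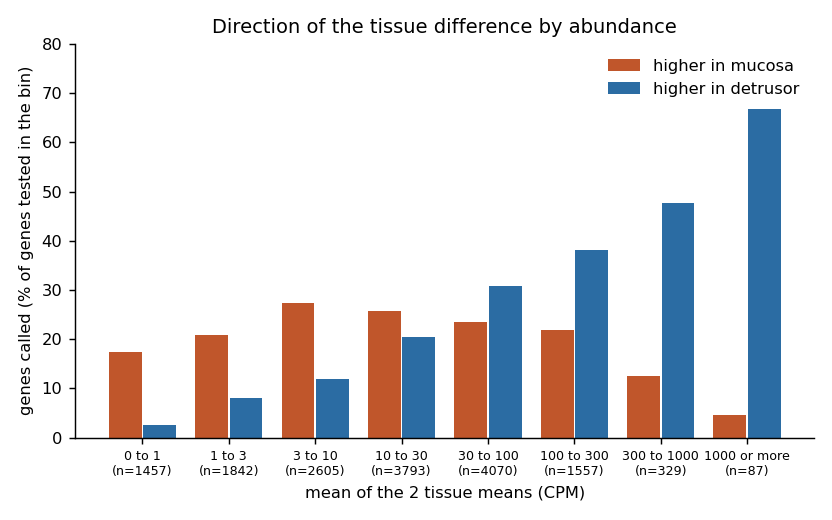
Percentage of tested genes called higher in mucosa (orange bars) or higher in detrusor (blue bars) in 8 classes of abundance (mean of the tissue means, CPM, horizontal axis, with the number of genes tested). Detrusor calls rose from 2.47% of genes in the lowest class to 66.7% in the highest, whereas mucosa calls were 17.3% in the lowest class, 27.4% at 3 to 10 CPM, 21.8% at 100 to 300 CPM and 4.60% in the highest class.

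The most abundant transcripts of each layer followed the same division. Of the 10 genes with the highest mean in detrusor, 8 were called higher in detrusor and 0 higher in mucosa, and 2 were also among the 10 highest in mucosa. Of the 10 highest in mucosa, 2 were called higher in mucosa and 3 higher in detrusor. Among the 100 highest, 77 of the detrusor genes were called higher in detrusor, 23 of the mucosa genes were called higher in mucosa and 31 of the mucosa genes were called higher in detrusor, and the lists shared 52 genes. The 768 genes beyond 4-fold higher in detrusor took 33.7%, 31.7% and 28.4% of all counts in detrusor replicates 1, 2 and 3. The 1526 genes beyond 4-fold higher in mucosa took 8.13%, 7.69% and 8.18% of the counts in mucosa replicates 1, 2 and 3. The fewer detrusor genes thus took the larger share of their own layer's counts, without overlap between the groups. Both sets of genes were chosen on these 6 libraries, so these shares are a description.

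Among called genes with a mean of at least 50 CPM in one tissue and no overlap of the libraries, 4 are given here, the 2 with the largest difference in each direction. ENSRNOG00000010917 was at 88.5, 195 and 177 CPM in mucosa replicates 1, 2 and 3 and at 0.242, 0.596 and 0.292 CPM in the detrusor replicates, which is 1, 3 and 1 reads. Every mucosa library was far above every detrusor library. The log2 fold change was 8.51 with a standard error of 1.08, for which edgeR gave an adjusted p of 1.18e-05, and the means were 154 ± 57.0 CPM for mucosa and 0.377 ± 0.191 CPM for detrusor (SD, n = 3).

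ENSRNOG00000017842 was at 104, 67.5 and 102 CPM in the mucosa replicates and at 0.485, 0 and 1.17 CPM in the detrusor replicates, from 2, 0 and 4 reads. Here the log2 fold change reached 7.49 with a standard error of 1.10, and the edgeR adjusted p was 4.33e-05. For both genes the reads in detrusor were so few that the size of the fold is uncertain, with 95% intervals of 6.22 to 10.8 and 5.17 to 9.81 on the log2 scale.

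In the other direction, ENSRNOG00000003221 was at 44.8, 80.4 and 161 CPM in detrusor replicates 1, 2 and 3 and at 0.942, 0.298 and 0.550 CPM in the mucosa replicates. The difference came to -7.31 on the log2 scale with a standard error of 0.74, and the edgeR adjusted p was 1.48e-06. ENSRNOG00000026679 was at 103, 103 and 288 CPM in the detrusor replicates and at 3.77, 0.744 and 1.28 CPM in the mucosa replicates, which made a log2 difference of -6.45 with a standard error of 0.78 and an edgeR adjusted p of 7.70e-06. Both were highest in detrusor replicate 3, and their detrusor means were 95.6 ± 59.8 and 165 ± 106 CPM (SD, n = 3).

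**Figure D4:**
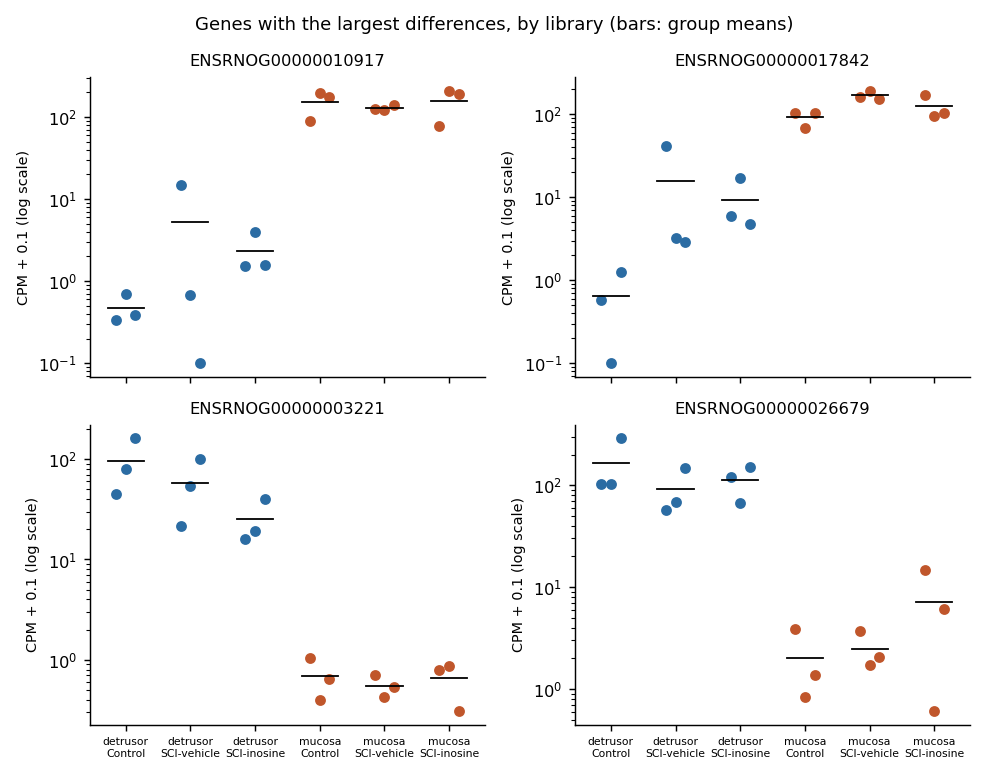
Level (CPM + 0.1, log scale, vertical axis) of the 4 genes with the largest differences in each of the 18 libraries, by tissue and condition (detrusor blue, mucosa orange). Points are libraries in the order of their replicate number and black bars are group means. In the Control libraries the mucosa and detrusor points are far apart in all panels, and SCI-vehicle replicate 1 is the highest of its detrusor group for both upper genes.

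Most genes were detected in both layers. Of the 21345 genes with a count in any of the 6 libraries, 18110 had counts in both tissues, 2393 in mucosa alone and 842 in detrusor alone. Counts in all 3 libraries of one tissue and in none of the other were found for 488 mucosa genes and 69 detrusor genes. After the libraries were thinned at random to the depth of the smallest (4101639 counts), these were 517 and 67. Thinning equalized total counts but not the TMM-scaled depth, which remained larger in mucosa. The part of that depth in these numbers was not tested. With at least 10 counts in every library of one tissue and 0 in the other, 29 mucosa genes and 4 detrusor genes remained. Against a floor of 3 counts over the 3 libraries of the other tissue, which covers counting error only, the 29 genes were at least 8.39-fold to at least 98.1-fold higher in mucosa, and the 4 genes at least 30.6-fold to at least 68.1-fold higher in detrusor. Of the 29 genes, 27 had a count in at least 1 of the SCI-vehicle detrusor libraries and 26 in at least 1 of the SCI-inosine detrusor libraries. Of the 4 genes, 3 had a count in SCI-vehicle mucosa and 2 in SCI-inosine mucosa. In each set, 1 gene had 0 counts in every library of the other tissue.

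Libraries of one layer held measurable levels of the other layer's genes, and mucosa replicate 1 held the most. The 342 detrusor genes beyond 4-fold with more than 50 CPM in detrusor stood at a median of 16.0%, 8.34% and 9.72% of their mean detrusor level in mucosa replicates 1, 2 and 3. All 768 detrusor genes together took 6.52% of the counts in mucosa replicate 1, and 2.64% and 3.43% in replicates 2 and 3. Replicate 1 had the highest level of the mucosa libraries for 570 (74.2%) of the 768 genes. It was also most often the highest for the mucosa genes beyond 4-fold, at 723 (47.4%) of 1526. This share was not taken over all genes tested. In the detrusor libraries the medians were more even. The 315 mucosa genes beyond 4-fold with more than 50 CPM in mucosa stood at a median of 10.2%, 11.2% and 10.9% of their mean mucosa level in detrusor replicates 1, 2 and 3. The number of these 315 genes under 1% of their mucosa level was less even, at 37, 27 and 6 in detrusor replicates 1, 2 and 3. Of the 342 detrusor genes, 1, 43 and 23 were under 1% of their detrusor level in mucosa replicates 1, 2 and 3. Both sets were chosen as beyond 4-fold in these same Control libraries, which by itself caps their mean level in the other tissue. The part of dissection, of cells common to both layers and of other sources in these levels was not tested.

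**Figure D5:**
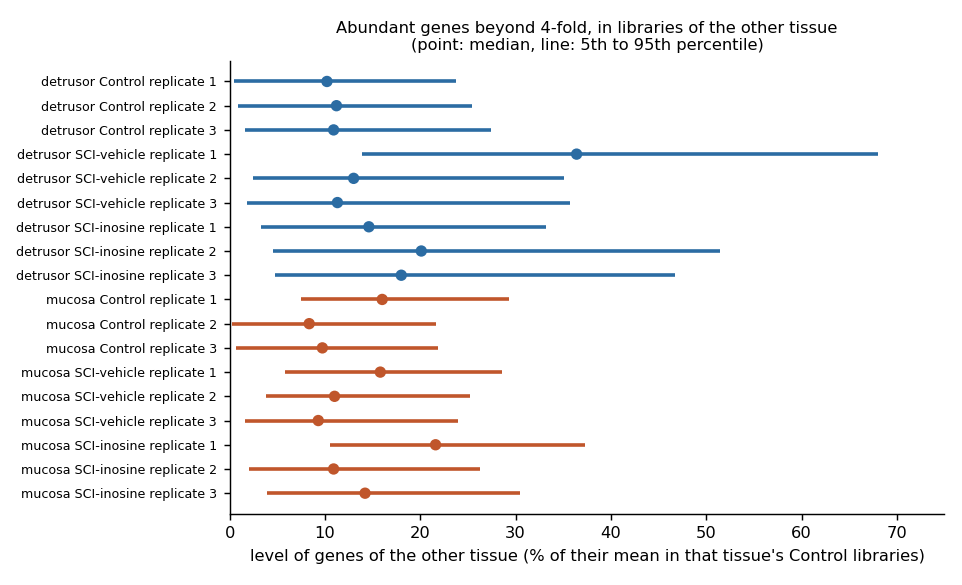
Level of the other tissue's abundant genes (% of their mean in that tissue's Control libraries, horizontal axis) in each of the 18 libraries, with 315 mucosa genes shown in detrusor libraries (blue) and 342 detrusor genes in mucosa libraries (orange). Points are medians and lines run from the 5th to the 95th percentile. Among Control libraries mucosa replicate 1 is highest at 16.0%, and over all libraries detrusor SCI-vehicle replicate 1 is highest at 36.4%. The genes were chosen as beyond 4-fold in the Control libraries, which by itself caps their mean level in the other tissue there.

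Replicates of a tissue were closer to each other than to the other tissue in each pair. Pearson correlations of log2 CPM over the genes tested were 0.9659 to 0.9767 among detrusor libraries, 0.9614 to 0.9779 among mucosa libraries and 0.8226 to 0.8635 between the tissues, as a description across genes, which are not independent. Between 8.28% and 12.6% of genes differed by more than 2-fold within detrusor pairs, 5.60% to 9.94% within mucosa pairs and 31.9% to 36.8% between tissues. The biological coefficient of variation was 21.4% in detrusor and 20.1% in mucosa. Without single replicates it ranged from 14.9% (without replicate 1) to 24.8% (without replicate 3) in mucosa and from 17.4% (without replicate 3) to 24.5% (without replicate 2) in detrusor. In the injured groups, which shared the estimate of the spread, it was 26.4% (SCI-vehicle) and 31.5% (SCI-inosine) in detrusor. In mucosa it was 19.5% and 20.4%. Detrusor SCI-inosine replicate 2 had the fewest genes with a count of all libraries, 14126. Without it 7704 genes were called between the uninjured tissues, the most of any fit that left out a single library.

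Many genes could not be placed on either side. Of the 8737 genes not called, 4584 had a 95% interval of the log2 fold change within 1 of 0, so that a difference beyond 2-fold in either direction lay outside the interval. The other 4153 genes had an interval that reached past 2-fold, and their levels in the 2 layers are not resolved with 3 libraries per tissue. At the opposite end, 2522 genes (16.0% of those tested) were called with an interval wholly beyond 2-fold.

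The same contrast was then taken in the injured rats, whose 12 libraries bore on the choice of genes only through the filter, the scaling and the shared estimate of the spread. Of the 3666 genes called higher in uninjured mucosa, 3529 (96.3%) were also higher in mucosa in SCI-vehicle rats and 3503 (95.6%) in SCI-inosine rats. Of the 3337 genes higher in uninjured detrusor, 3265 (97.8%) and 3258 (97.6%) kept that direction. By comparison, of all genes tested 56.5% were higher in mucosa in SCI-vehicle and 54.7% in SCI-inosine rats, called or not. Calls in either direction were made for 47.1% of all genes tested with vehicle (4004 higher in mucosa, 25.4%, and 3413 higher in detrusor) and for 42.7% with inosine (3589, 22.8%, and 3137). Calls in the same direction as in Control were made for 2729 (74.4%) and 2543 (69.4%) of the mucosa genes and for 2615 (78.4%) and 2469 (74.0%) of the detrusor genes. In the opposite direction, 19 and 2 of the mucosa genes and 3 and 0 of the detrusor genes were called by edgeR. The median log2 fold change of the mucosa genes was 1.68 in Control rats, against 1.26 (SCI-vehicle) and 1.12 (SCI-inosine), and that of the detrusor genes was -1.03, -0.97 and -0.88. The genes were chosen on the Control values, which by itself can make the Control medians larger. The other layer's abundant genes beyond 4-fold stood at a median of 36.4% in detrusor SCI-vehicle replicate 1. They were at 20.1% and 18.0% in detrusor SCI-inosine replicates 2 and 3 and at 21.6% in mucosa SCI-inosine replicate 1. The other injured libraries were at 9.29% to 15.8% and the Control libraries at 8.34% to 16.0%. The part of the choice of genes or of these levels in the smaller injured medians was not tested.

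Across all genes, the change of the tissue difference from Control was called for 19 genes (0.121%) in SCI-vehicle and 0 genes (0%) in SCI-inosine rats, and an unadjusted p-value under 0.05 was found for 1731 (11.0%) and 1632 (10.4%) by edgeR. These counts were not stable. Leaving out single libraries gave 1 (without detrusor Control replicate 1, among others) to 95 genes (without detrusor Control replicate 3) for SCI-vehicle and 0 to 3 for SCI-inosine, DESeq2 gave 155 and 42, and edgeR's likelihood ratio test 128 and 59.

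The 4 genes named above had the same direction in both injured groups. ENSRNOG00000010917 was 4.71 higher in mucosa on the log2 scale in SCI-vehicle (adjusted p = 0.000135 by edgeR) and 6.08 higher in SCI-inosine (adjusted p = 4.42e-05 by edgeR). Its SCI-vehicle detrusor levels were 14.8, 0.585 and 0 CPM, from 69, 3 and 0 reads, so replicate 1 held nearly all of them. ENSRNOG00000017842 had log2 fold changes of 3.44 and 3.73, with adjusted p-values of 0.000876 and 0.000716 in the same edgeR fit. Its detrusor level was 0.552 ± 0.588 CPM in Control, 15.7 ± 22.1 CPM with vehicle and 9.13 ± 6.70 CPM with inosine after injury (SD, n = 3). In SCI-vehicle detrusor it was at 41.3, 3.12 and 2.80 CPM, so replicate 1 set the mean. For ENSRNOG00000003221 the values were -6.95 and -5.46, and for ENSRNOG00000026679 they were -5.24 and -3.98. The test of the change from Control gave adjusted p-values of 0.326 to 0.958 for these 4 genes in both injured groups by edgeR, so no change of the tissue difference was resolved for any of them.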

How the data were processed

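Total RNA of detrusor and mucosa was depleted of ribosomal RNA and made into stranded libraries by the authors, who sequenced paired-end reads on a pair of flow cells and summed them per library. The submitters' processing notes name Trim Galore 0.6.10, STAR 2.7.10a, featureCounts 2.0.3 and the genome build Rnor_6.0. The annotation release and the strand setting are not given in the sources used here. The values deposited by the authors are raw counts per gene, without normalization (0 columns unused, 0 entries without a gene).

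Counts were tested as deposited with edgeR 4.0.16 in R 4.3.3 (TMM, quasi-likelihood F test, two-sided). A model of 6 groups was fitted to all 18 libraries. Genes with over 1 CPM (on library totals) in at least 3 libraries entered, and p-values were adjusted over all 15740 genes. Standard errors were the log2 fold change divided by the square root of F, and 95% intervals used the total degrees of freedom. Log2 CPM for correlations had a prior count of 2. Scripts were tested on simulated data of the Control contrast, in which 100 genes were changed by 1 and 100 by 2 among 15740. The quasi-likelihood test recovered 40% of the genes changed by 1 on the log2 scale and 80% of those changed by 2. Of its calls, 3.23% were false, a share that depends on how many genes were changed. The rule for passing first asked for over 80% recovery at a change of 2, and it was replaced after this result was seen. With 3 libraries a group, p-values measure the spread between these libraries, which may be technical.

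Groups were taken from the labels. Alternatives were DESeq2 1.42.0 (which the authors used), edgeR's likelihood ratio test and glmTreat, other scalings and filters, fewer libraries and a replicate block. Thinning of libraries, the floor of 3 counts and the levels of the other tissue's genes were chosen after seeing the data. Named genes were to be the 15 with the largest change in each direction (called, no overlap, at least 50 CPM in one tissue), the markers and members of fixed gene lists, the 10 most abundant genes of each tissue and abundant genes with a narrow interval around 0. Because the identifiers could not be paired with symbols, the lists and markers were not run, the filter on symbols was not applied, and 2 genes of each direction were printed. The comparison and lists were chosen with earlier results of these data known.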

Additional observations from a re-analysis of the deposited data

Results flagged for a closer look

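The mucosa minus detrusor difference was not the same size in uninjured and SCI-vehicle rats for 19 genes (0.121% of those tested), when edgeR tested the change itself at an adjusted p-value under 0.05. Of these, 5 were called higher in mucosa in Control, 6 were called higher in detrusor and 8 were not called there, and the sign of the difference turned for 7. The change in the log2 difference, SCI-vehicle minus Control, was negative for 18 and positive for 1, from -3.19 to 1.57. The count moved with single libraries. It was 1 without detrusor Control replicate 1, detrusor Control replicate 2, detrusor SCI-vehicle replicate 3, mucosa Control replicate 2 or mucosa SCI-vehicle replicate 1, 2 without mucosa Control replicate 3, 3 without mucosa Control replicate 1 or mucosa SCI-vehicle replicate 3, 5 without detrusor SCI-vehicle replicate 2, 6 without detrusor SCI-inosine replicate 3, 7 to 12 without mucosa SCI-vehicle replicate 2 or any mucosa SCI-inosine library, 44 without detrusor SCI-vehicle replicate 1 and 95 without detrusor Control replicate 3. Without detrusor SCI-vehicle replicate 1, 18 of the 19 genes were still called. For SCI-inosine the same edgeR test called 0 genes (smallest adjusted p-value 0.120), with 1632 genes (10.4%) at an unadjusted p-value under 0.05, DESeq2 calling 42 and edgeR's likelihood ratio test calling 59.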

How the results depend on the processing

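The number of genes called between uninjured mucosa and detrusor stayed within 1.5 times 7003 under all alternatives run except glmTreat, which tests against a log2 fold change of 1 by construction and gave 2454 (1472 higher in mucosa, 982 higher in detrusor). Leaving out each Control library gave 5870 (without mucosa replicate 2) to 6311 genes, 2998 to 3277 higher in mucosa and 2766 to 3034 higher in detrusor, and 2026 to 2270 beyond 4-fold, 1306 to 1508 higher in mucosa and 683 to 809 higher in detrusor. Library totals gave 7426 genes higher in mucosa and 1544 higher in detrusor, with 2327 higher in mucosa beyond 4-fold, and 10 genes called under both scalings had opposite signs. DESeq2 called 7090 genes, 6886 of them among the 7003, and left 12 without an adjusted p-value, ENSRNOG00000017842 among them. The 4 named genes kept their direction and call in every other alternative run for them. The change of the tissue difference depended most on the settings. For SCI-vehicle, DESeq2 gave 155 genes, the likelihood ratio test 128, every gene with a count 41 and the fit without detrusor SCI-vehicle replicate 1 44, and leaving out single libraries gave 1 to 95. For SCI-inosine, DESeq2 gave 42, the likelihood ratio test 59, every gene with a count 4, and leaving out single libraries 0 to 3. The cause was not tested. In simulated data of the Control contrast, 100 genes were changed by 1 and 100 by 2 on the log2 scale among 15740. There 13.4% of the DESeq2 calls and 15.5% of the likelihood ratio calls were false, against 3.23% with the quasi-likelihood test. Such shares depend on how many genes truly differ, and 44.5% of genes were called in the real contrast. The counts were also drawn with edgeR's own dispersions, so these shares do not carry over to the real data. The simulation did not assess calls of the change with injury. Among choices made after seeing the data, the floor of 3 counts gave 1447 and 775 genes beyond 4-fold, and thinning gave 517 mucosa and 67 detrusor genes detected in 1 tissue.

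The replicate block gave 6545 genes with 18 libraries and 6739 with the 6 Control libraries, and 5 genes for the SCI-inosine change. Deviations of same-numbered Control libraries correlated at 0.121, 0.144 and 0.045, so the rule for pairing (each above 0.1) was not met. Each of the 6 libraries correlated best with its own number. The deviations were taken from each tissue's mean of 3 libraries, so these matches are tied to each other and are not 6 separate results. The list alternatives were not run because no gene symbols could be matched. Depth and 3 libraries a tissue limit what can be said of genes under 1 CPM, where the median standard error was 1.01.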
